A study of Mus musculus with 8 samples.

Results

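The SoxE and SoxD genes were followed in RNA-seq of induced immature oligodendrocytes (iOLs). SoxE comprises Sox8, Sox9 and Sox10, and SoxD comprises Sox5, Sox6 and Sox13. These 6 genes, of the 24346 in the expression table, were chosen from the family by name. The genotype difference of Sox9 and Sox10 in the same libraries also entered the choice. Their values are therefore described below without a p for any of them. Counts of members called in the fit over all genes are not read as a result. There were 4 libraries of Med23+/+ iOLs and 4 of Med23-/- iOLs. The Med23-/- mice were Med23 fl/fl with Olig1-Cre, and the Med23+/+ controls were their Med23 fl/fl littermates without Cre. Floxed alleles were therefore present in both groups, while Cre at the Olig1 locus was present in Med23-/- cells alone, so that loss of Med23 and the Cre insertion cannot be told apart. Oligodendrocyte precursor cells (OPCs) came from the brains of pups at postnatal day 7. Plates coated with the lectin BSL1 first removed endothelial cells and microglia, and an antibody to CD140a, the protein of Pdgfra, then captured the OPCs. All cells were expanded with the mitogen PDGF-AA (10 ng/mL) and the neurotrophin NT-3 (1 ng/mL) and were then kept for 1 day in 15 nM T3, the active thyroid hormone, with the cytokine CNTF at 10 ng/mL. The labels do not say whether the cultures came from separate animals, so p-values measure the spread between these libraries, which may be technical.

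Sox proteins bind DNA through an HMG box, a domain that bends the minor groove. SoxE proteins activate genes of neural crest, glia and cartilage. Sox9 acts in neural progenitors, in the choice of a glial fate and in astrocytes, and Sox10 is the SoxE factor that oligodendrocytes need to express myelin genes. Sox8 overlaps with both in function. SoxD proteins carry an HMG box and a coiled coil but no activation domain of their own, and Sox5 and Sox6 are known to hold back oligodendrocyte differentiation and, in cartilage, to assist Sox9.

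The coding sequence around the HMG box is shown because it is the part the members share, and because the reads of related genes can only be told apart where their letters differ. The block of 249 bases, taken from GENCODE vM21 transcripts on mm10, is given 5′ to 3′ on the coding strand, and capitals mark the bases that differ from Sox9.
Sox9: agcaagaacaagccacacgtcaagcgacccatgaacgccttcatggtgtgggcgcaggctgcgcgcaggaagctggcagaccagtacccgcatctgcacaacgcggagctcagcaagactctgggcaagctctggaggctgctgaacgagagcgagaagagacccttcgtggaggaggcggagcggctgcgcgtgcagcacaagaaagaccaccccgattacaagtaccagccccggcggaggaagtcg
Sox10: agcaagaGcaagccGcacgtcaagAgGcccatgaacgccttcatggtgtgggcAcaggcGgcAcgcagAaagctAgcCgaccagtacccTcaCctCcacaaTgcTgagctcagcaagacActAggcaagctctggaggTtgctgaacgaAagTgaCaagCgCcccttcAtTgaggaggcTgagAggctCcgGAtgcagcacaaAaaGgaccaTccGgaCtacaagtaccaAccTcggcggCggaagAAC
Sox8: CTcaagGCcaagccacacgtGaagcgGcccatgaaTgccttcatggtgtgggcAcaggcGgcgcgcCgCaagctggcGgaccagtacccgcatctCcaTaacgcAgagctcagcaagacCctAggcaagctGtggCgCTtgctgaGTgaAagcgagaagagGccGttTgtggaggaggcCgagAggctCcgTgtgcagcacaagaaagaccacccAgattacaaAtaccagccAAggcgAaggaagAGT
Sox5: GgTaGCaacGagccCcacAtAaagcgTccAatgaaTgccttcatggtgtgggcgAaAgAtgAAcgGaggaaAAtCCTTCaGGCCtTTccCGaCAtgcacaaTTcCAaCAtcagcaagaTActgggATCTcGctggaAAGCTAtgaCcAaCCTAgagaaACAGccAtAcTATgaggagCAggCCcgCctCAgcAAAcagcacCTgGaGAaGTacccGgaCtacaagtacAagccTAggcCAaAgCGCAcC

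In Sox9 the block lies on the plus strand in 2 coding exons, at chr11:112782879-112783015 and chr11:112783809-112783920. In Sox10 it lies on the minus strand at chr15:79163289-79163425 and chr15:79159292-79159403. That of Sox8 lies on the minus strand at chr17:25570110-25570246 and chr17:25568949-25569060, and that of Sox5 on the minus strand at chr6:143841174-143841297 and chr6:143835288-143835412. Sox10 differed from Sox9 at 41 bases and Sox8 at 39, whereas Sox5 differed at 98. Within SoxE the encoded residues were 94.0% identical between Sox9 and Sox10 and 96.4% between Sox9 and Sox8. Between Sox9 and Sox5 they were 49.4% identical, which separates the subgroups. Over whole transcripts the longest stretch of letters common to Sox9 and Sox10 was 44 bases, and for every other pair of members it was between 12 and 26 bases.

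The genes themselves lie on different chromosomes, Sox9 at chr11:112782224-112787760, Sox10 at chr15:79154908-79165240 and Sox8 at chr17:25565892-25570686. Sox5 is at chr6:143828425-144781977, Sox6 at chr7:115470872-116038796 and Sox13 at chr1:133382303-133424377. Exons of Sox8 share 329 bases, 10.6% of its exonic bases, with the antisense gene 2810468N07Rik, and exons of Sox5 share 1330 bases, 9.25%, with Sox5os1. Whether the counting used strand is not given in the sources used here, so reads of these genes and their antisense partners cannot be told apart over the shared bases.

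Levels are given in FPKM, fragments scaled by transcript length and by library size, which allows genes to be compared per length. Med23 itself averaged 12.5 ± 0.225 FPKM in controls and 8.26 ± 0.247 FPKM in Med23-/- iOLs (SD, n = 4), a log2 difference of -0.55 with an adjusted p of 0.000353 by limma. The value left in Med23-/- cells was 65.8% of the control, and an FPKM over the whole gene does not show which exons the transcripts lack. The table holds no read counts, so depth is unknown. From the spacing of low values, 1 read was worth between 0.737 and 1 in Med23+/+ and between 0.76 and 1.02 in Med23-/- libraries, relative to Med23+/+ replicate 1, and these ranges overlap. In bulk RNA, fewer cells of a type and less RNA per cell cannot be told apart, which holds for each value given here.

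Sox9, the SoxE factor of progenitors and astrocytes, was the member with the greatest difference between the genotypes as a ratio. It measured 7.80, 7.11, 4.89 and 6.92 FPKM in Med23+/+ replicates 1 to 4. In Med23-/- replicates 1 to 4 it measured 48.5, 43.2, 33.1 and 71.5 FPKM. The groups did not overlap, and the lowest Med23-/- library was 4.25 times the highest Med23+/+ library. The means were 6.68 ± 1.25 and 49.1 ± 16.3 FPKM (SD, n = 4), a ratio of 7.35. On the scale of log2(FPKM + 1) the difference was 2.67 with a standard error (SE) of 0.21, and 6 of the 12328 genes tested, those whose mean reached 1 FPKM, had a greater positive difference. By level, Sox9 stood above 31.8% of them in Med23+/+ and above 88.3% in Med23-/- iOLs. Its Med23-/- libraries were also spread widely, with the highest 2.16 times the lowest. The residual SD of its log2 values, taken over both genotypes together, was above that of 93.6% of genes tested.

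Sox10, the SoxE activator of myelin genes, went the other way and by a smaller ratio. Its Med23+/+ libraries read 267, 220, 263 and 269 FPKM, in the order of the replicates. Its Med23-/- libraries read 209.7, 212, 149 and 162 FPKM. The groups were separate but close, since the lowest control, Med23+/+ replicate 2, was 1.04 times the highest Med23-/- library. The mean was 254.9 ± 23.1 FPKM against 183 ± 32.4 (SD, n = 4), a ratio of 0.719 and a log2 difference of -0.49 (SE 0.13). Sox10 thus remained among the most highly expressed genes in both genotypes, with 250 and 330 of the genes tested above it.

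Sox8, the remaining SoxE gene, was expressed at the level of Sox10 and was not separated by genotype. Controls gave 299, 248, 219.7 and 265 FPKM, and the Med23-/- cultures gave 241, 279.6, 209 and 173 FPKM. Med23-/- replicate 2 was higher than 3 of the 4 controls, and the ranges overlapped. The mean was 258 ± 33.0 FPKM against 226 ± 45.3 (SD, n = 4), a log2 difference of -0.20 (SE 0.15). The antisense gene that overlaps its exons averaged 106 ± 5.84 and 83.2 ± 14.3 FPKM, and its part in the values of Sox8 was not tested.

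Among the SoxD genes, Sox5, a repressor of oligodendrocyte differentiation, differed most as a ratio. It measured 30.3, 29.0, 38.9 and 32.6 FPKM in Med23+/+ and 16.0, 18.6, 17.5 and 18.0 FPKM in Med23-/- libraries. All 4 Med23-/- libraries lay below all controls, with the nearest values differing 1.56 times. The mean was 32.7 ± 4.41 FPKM against 17.5 ± 1.11 (SD, n = 4), a ratio of 0.537 and a log2 difference of -0.85 (SE 0.10).

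Sox6, the most abundant SoxD gene, was also lower in Med23-/- iOLs. Its values were 109.8, 125, 126 and 122 FPKM in Med23+/+ and 86.4, 99.2, 82.3 and 84.8 FPKM in Med23-/- libraries. The groups did not overlap, and the spread within each was narrow, with a coefficient of variation of 6.12% and 8.56%. The mean was 121 ± 7.38 FPKM against 88.2 ± 7.55 (SD, n = 4), a ratio of 0.731 and a log2 difference of -0.45 (SE 0.08).

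Sox13, the third SoxD gene, was expressed weakly and its libraries overlapped. It measured 2.76, 3.14, 2.32 and 1.94 FPKM in Med23+/+ and 2.62, 2.47, 1.497 and 2.15 FPKM in Med23-/- libraries. The log2 difference was -0.16 with an SE of 0.15, about the size of its error.

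**Figure D1:**
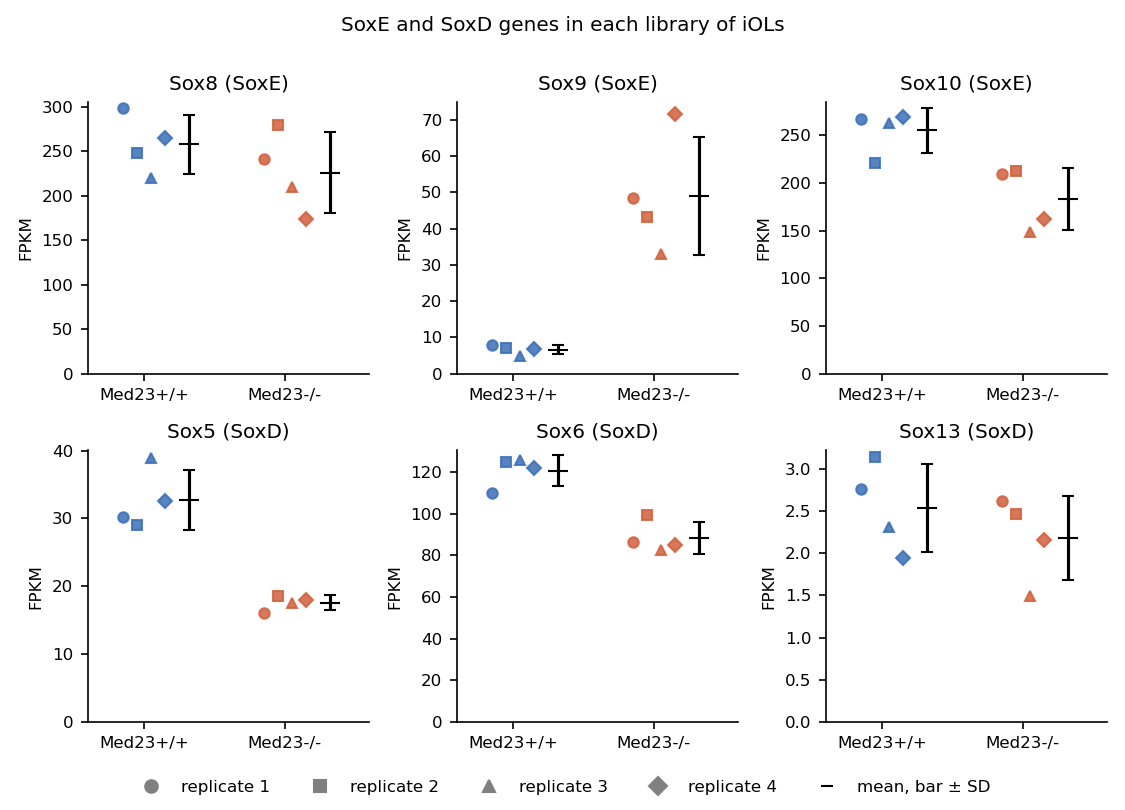
Level of each SoxE and SoxD gene in FPKM (y axis, from 0, a scale per gene) in Med23+/+ (blue) and Med23-/- (red) iOLs. Each point is 1 library, its shape gives the replicate number, and the bar is the mean ± SD of 4 libraries. Sox9 lies between 4.89 and 7.80 FPKM in the controls and between 33.1 and 71.5 FPKM in Med23-/- libraries, while Sox10, Sox5 and Sox6 lie lower in Med23-/- and Sox8 and Sox13 overlap.

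All 6 members had at least 1 FPKM in each of the 8 libraries, so each passed the limit on low values in both genotypes. By an adjusted p under 0.05 in the limma fit over all genes, 3 members were lower and 1 was higher, where 14.1% of all genes tested were lower and 15.9% higher. With a fold change over 2 besides, 0 members were lower and 1 was higher, against 1.75% and 2.98% of all genes. By separation of the genotypes, 3 members were lower and 1 was higher, against 15.3% and 16.3% of all genes. The members were chosen on this same contrast, so nothing is read from these counts.

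The composition of SoxE shifted between Sox9 and Sox10, while the part of Sox8 stayed near the same value. Shares within a library do not depend on how libraries were scaled against each other. Sox9 made up 1.36%, 1.49%, 1.00% and 1.28% of the summed SoxE FPKM in Med23+/+ and 9.71%, 8.08%, 8.47% and 17.6% in Med23-/- libraries. The mean share was 1.28% ± 0.21 against 11.0% ± 4.46 (SD, n = 4). Med23-/- replicate 4 stood above the other three, and without it the Med23-/- mean was 8.75%. Sox10 supplied 49.1% ± 3.54 in Med23+/+ and 39.9% ± 1.62 in Med23-/- iOLs, without overlap. Sox8 supplied 49.6% ± 3.34 and 49.2% ± 4.93, with overlap.

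The ratio of Sox10 to Sox9 FPKM put the contrast in a single number for each library. It was 34.3, 31.0, 53.8 and 38.9 in Med23+/+ and 4.32, 4.91, 4.49 and 2.27 in Med23-/- libraries. Sox10 therefore exceeded Sox9 in all 8 libraries, but by a mean factor of 39.5 ± 10.1 in controls and 3.998 ± 1.18 in Med23-/- iOLs (SD, n = 4). In FPKM the difference of means, Med23-/- minus Med23+/+, was 42.4 for Sox9, -71.7 for Sox10 and -32.0 for Sox8. The summed SoxE level was 519 ± 45.9 FPKM in Med23+/+ and 458 ± 69.9 in Med23-/- iOLs, and its ranges overlapped.

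The summed SoxD level did not overlap between the genotypes. Their sum was 156 ± 9.96 FPKM in controls and 108 ± 8.43 FPKM in Med23-/- iOLs (SD, n = 4), and no library of one genotype reached the range of the other. Sox6 supplied 77.4% ± 1.76 of it in controls and 81.7% ± 0.819 in Med23-/- iOLs, and Sox5 supplied 20.9% ± 1.97 and 16.3% ± 1.09. The ratio of Sox6 to Sox5 was 3.73 ± 0.443 in Med23+/+ and 5.03 ± 0.385 in Med23-/- iOLs. It ran from 3.24 to 4.31 and from 4.69 to 5.39, so that Sox5 had the greater difference as a ratio. In FPKM, Sox6 had the greater one, with a difference of means of -32.4 against -15.1 for Sox5.

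**Figure D2:**
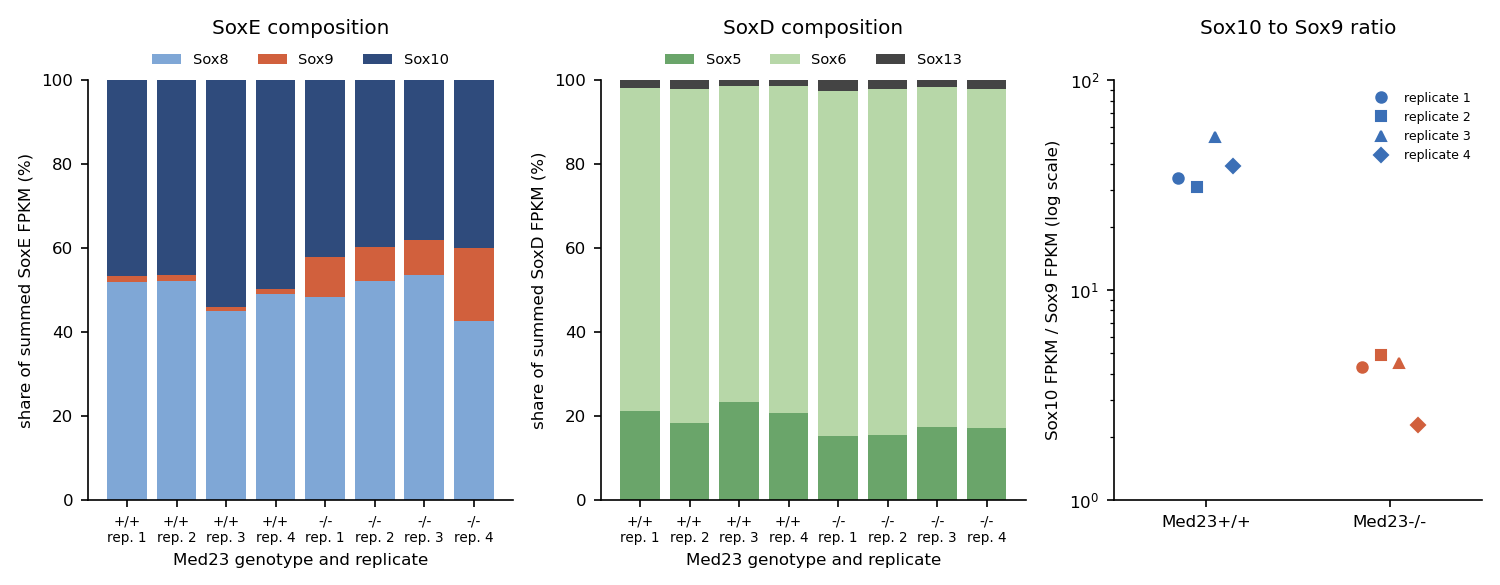
Share of each gene in the summed FPKM of SoxE (left) and SoxD (middle) per library, in percent, and the ratio of Sox10 to Sox9 FPKM per library on a log axis (right, 1 point per library). The Sox9 band is 1.00% to 1.49% in Med23+/+ and 8.08% to 17.6% in Med23-/- libraries, and the Sox10 to Sox9 ratio is at least 31.0 in the former and at most 4.91 in the latter.

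Ordered by mean FPKM, the controls ran Sox8, Sox10, Sox6, Sox5, Sox9 and Sox13. Sox8 and Sox10 did not differ beyond their spread, since Sox8 was the higher in 2 of 4 libraries, whereas every later step down the order held in 4 of 4 libraries without overlap. In Med23-/- iOLs the order was Sox8, Sox10, Sox6, Sox9, Sox5 and Sox13, so Sox9 and Sox5 changed places. Sox9 was 2.80 times Sox5 there, while Sox5 was 4.89 times Sox9 in controls. Sox8 exceeded Sox10 in 4 of 4 Med23-/- libraries, by a mean ratio of 1.24 ± 0.155, although the ranges of their levels overlapped.

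The genes nearest to a member in profile were found from log2(FPKM + 1) over the 8 libraries, each gene centred on its mean, by the root mean square (RMS) difference. Nearest to Sox9 were Adamts9, a secreted protease, at 0.243, Tacc2, a centrosomal coiled-coil protein, at 0.306, and March1, a membrane-bound ubiquitin ligase, at 0.332. The search picks genes of like profile, so that these 3 genes were low in controls and high in Med23-/- libraries follows from it. All were, like Sox9, highest in Med23-/- replicate 4. Med23-/- replicate 3 was the lowest of its genotype for Sox9 and for Tacc2, at 42.0 FPKM. In that library Adamts9, at 13.2 FPKM, and March1, at 9.83 FPKM, were above Med23-/- replicates 1 and 2. Adamts9 averaged 1.49 ± 0.219 FPKM in controls and 13.7 ± 3.63 FPKM in Med23-/- iOLs (SD, n = 4). Nearest to Sox10 were Aldh2, a mitochondrial aldehyde dehydrogenase, at 0.0367, Gng7, a G protein subunit, at 0.0686, and Fuz, a planar polarity effector, at 0.0704. All had the low value in Med23-/- replicates 3 and 4 that Sox10 had, with Aldh2 at 23.1 ± 1.71 against 15.9 ± 2.79 FPKM. Near to Sox8 were Prdx2, a peroxiredoxin, at 0.0817, and Atxn7l3, a subunit of the SAGA complex, at 0.0895. No other SoxE or SoxD gene was among the nearest profiles of a member: Sox6, the nearest member to Sox10, was at an RMS difference of 0.165 and rank 267.

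**Figure D3:**
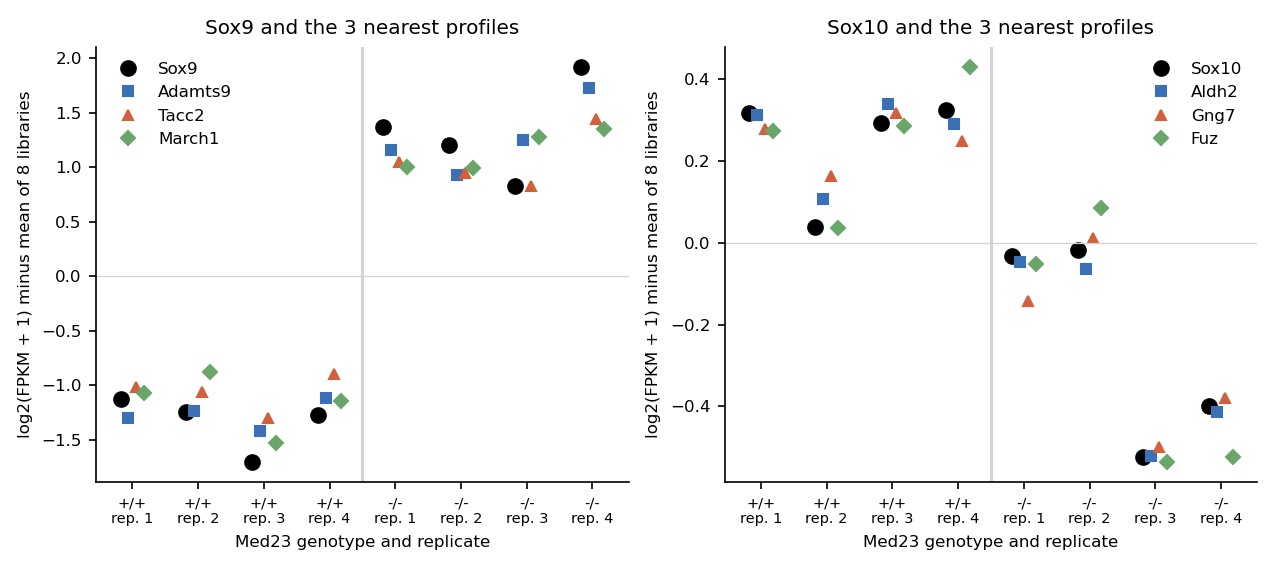
Centred log2(FPKM + 1) of Sox9 (left) and Sox10 (right), in black, with the 3 genes nearest in profile to each, by library along the x axis and with a y scale for each panel. The Sox9 group lies below 0 in the 4 Med23+/+ libraries and above 0 in the 4 Med23-/- libraries, and the Sox10 group is lowest in Med23-/- replicates 3 and 4.

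Genes that background knowledge places around these factors were read from lists, which were compared by counts and medians in the same fit. Over all 12328 genes tested, the median log2 difference was -0.01, with 14.1% of genes lower and 15.9% higher by adjusted p. Of 15 oligodendrocyte genes downstream of Sox10, 12 reached the limit for testing, 10 fell and 1 rose (limma, adjusted p under 0.05), with a median log2 difference of -1.38. Mag, an adhesion protein of the inner myelin layer, went from 14.2 ± 3.70 to 0.86 ± 0.409 FPKM (SD, n = 4), a log2 difference of -3.03 with an adjusted p of 1.86e-05. Gjb1, a gap junction protein of oligodendrocytes and Schwann cells, was the member of this list that rose, by a log2 difference of 1.27 from 0.586 to 2.996 FPKM (adjusted p = 0.00584). Zfp488, the tested gene that missed the threshold, had a log2 difference of -0.17 (limma, adjusted p = 0.221), smaller than the -0.49 of Sox10. Each of the 10 genes that fell had a log2 difference beyond that of Sox10. Passing the threshold itself favours large differences, so nothing is read from this comparison. In this list, 4 genes also serve as oligodendrocyte markers further on.

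Of 15 cartilage matrix genes that Sox9 activates with Sox5 and Sox6 in chondrocytes, 9 were tested, 7 fell and 1 rose, with a median log2 difference of -0.96. Col11a2, a fibrillar collagen chain, went from 22.2 ± 5.91 to 4.66 ± 1.30 FPKM, a log2 difference of -2.03 with an adjusted p of 0.000227. Col9a1, a chain of the collagen on the fibril surface, had a log2 difference of -1.96 (adjusted p = 0.000171). Col27a1, another fibrillar collagen, rose by a log2 difference of 1.03 (adjusted p = 0.00148), from 2.36 ± 0.625 to 5.86 ± 1.21 FPKM. Col2a1, the main cartilage collagen, was below the limit of expression, with 0.907 and 0.317 FPKM.

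Of 10 gliogenic genes that act with or under Sox9, all were tested, 4 rose and 1 fell, with a median log2 difference of 0.28. Pdgfra, the PDGF receptor of OPCs and the antigen the cells were captured by, rose from 121 ± 17.2 to 334 ± 9.59 FPKM, a log2 difference of 1.47 with an adjusted p of 2.33e-05. Nfib, a nuclear factor I gene of glial development, rose by a log2 difference of 0.79 (adjusted p = 0.000506). Fgfr3, a receptor of glial progenitors and astrocytes, fell by 2.05 on the log2 scale, with means of 24.2 ± 3.34 and 5.12 ± 1.02 FPKM (adjusted p = 2.26e-05). The genes placed around Sox9 therefore did not move in a single direction, and the count that rose was 2 without Med23+/+ replicate 1, without replicate 2 or without replicate 3.

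Of 8 effectors described upstream of Sox9, 6 were tested, 0 rose and 1 fell by limma, with a median log2 difference of -0.04. The gene that fell was Hif1a, the hypoxia factor, which went from 87.2 ± 8.67 to 59.3 ± 7.05 FPKM (log2 difference -0.55, adjusted p = 0.00385). At an unadjusted p under 0.05 the counts were also 0 and 1. With quantile normalization Notch1 passed as higher by adjusted p (0.0483, limma). Of 13 cofactors described for Sox proteins, all were tested, 2 fell and 1 rose, with a median of -0.06. Beside the 14.1% of all genes that were lower and the 15.9% that were higher, these counts are no result about either list. Chd7, a chromatin remodeller that works with Sox10 in oligodendrocytes, rose by a log2 difference of 0.76, from 23.9 ± 0.742 to 41.3 ± 2.86 FPKM (adjusted p = 0.000106). Hdac1 and Hdac2, histone deacetylases, had log2 differences of -0.47 and -0.32 with adjusted p of 0.0319 and 0.0248 by limma. These 2 calls were not stable: over the alternatives their adjusted p ran from 0.00162 to 0.0874 and from 0.0163 to 0.135. Hdac1 missed the threshold without Med23+/+ replicate 3 or 4 or Med23-/- replicate 1 or 2, at 0.0782 to 0.0874, and Hdac2 without Med23+/+ replicate 2 or 3 or Med23-/- replicate 1, at 0.0639 to 0.0697. The count of cofactors that fell was 0 without Med23+/+ replicate 3 or Med23-/- replicate 1, and 1 without Med23+/+ replicate 2 or 4 or Med23-/- replicate 2.

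Of the other 13 Sox genes, 7 were tested, 3 rose and 3 fell, with a median log2 difference of -0.25. Sox3, a SoxB1 factor of neural progenitors, rose from 23.2 ± 4.89 to 58.0 ± 15.3 FPKM, a log2 difference of 1.26 with an adjusted p of 0.00217. Sox2, the SoxB1 factor of stem cells, fell from 217 ± 17.2 to 133 ± 25.1 FPKM, a log2 difference of -0.72 with an adjusted p of 0.00346. Sox1 rose by a log2 difference of 0.76 (adjusted p = 0.0401), and Sox4, a SoxC factor, fell by 0.58 on the log2 scale (adjusted p = 0.0484). Sox11, also a SoxC factor, rose from 28.3 ± 3.85 to 48.6 ± 8.15 FPKM without overlap, a log2 difference of 0.75 (limma, adjusted p = 0.00276). Over the alternatives the adjusted p of Sox1 ran from 0.00871 to 0.107, and it missed the threshold without Med23+/+ replicate 2, 3 or 4 or Med23-/- replicate 1, 2 or 4, at 0.054 to 0.107. That of Sox4 ran from 0.0172 to 0.122, and it missed the threshold without Med23+/+ replicate 1, 3 or 4 or Med23-/- replicate 3 or 4, at 0.0857 to 0.114. The count of these genes that fell was 1 without Med23+/+ replicate 1, 3 or 4. No Sox gene of this list that was tested had a log2 difference as great as that of Sox9, and Sox17 was listed at 0 in all 8 libraries.

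Sox9 is also an astrocyte gene, so markers of the cell types a culture of this kind could hold were read beside it. The 7 astrocyte markers summed to between 81.3 and 118 FPKM in Med23+/+ and between 63.9 and 101 FPKM in Med23-/- libraries. These ranges overlap, and of the 6 tested, 2 fell and 1 rose by limma. The part of astrocytes in the Sox9 values was not tested. Gfap, the astrocyte filament protein, measured 30.0, 10.8, 6.56 and 6.91 FPKM in controls and 2.51, 2.33, 6.40 and 1.23 FPKM in Med23-/- libraries, and fell by 1.70 on the log2 scale (limma, adjusted p = 0.0222, or 0.0525 without Med23-/- replicate 1, with a range of 0.0122 to 0.0525 over the alternatives). Aqp4, the water channel of astrocyte endfeet, fell by 1.29 on the log2 scale (adjusted p = 0.012). Aldh1l1, a folate enzyme of astrocytes, had a log2 difference of -0.68 that missed the threshold (adjusted p = 0.0634, or 0.0385 without Med23+/+ replicate 4 and 0.0333 without Med23-/- replicate 3, and 0.0333 to 0.138 over the alternatives). Slc1a2, the astrocyte glutamate transporter, rose from 11.0 to 17.8 FPKM without overlap, a log2 difference of 0.67 with an adjusted p of 0.0222 by limma. Gja1, a gap junction protein, and Aldoc had log2 differences of 0.29 and -0.001 and missed the threshold. Gjb6, a connexin of mature astrocytes, was below 1 FPKM in every library.

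Markers of the labelled lineage were present in all 8 libraries. The 4 OPC markers summed to between 876 and 1274 FPKM in Med23+/+ and between 1220 and 1676 FPKM in Med23-/- libraries, with 2 of 4 rising, and the 4 oligodendrocyte markers to between 621 and 757 FPKM and between 147 and 288 FPKM, with 4 of 4 falling. The 7 neuron markers summed to between 42.5 and 70.2 FPKM in controls and between 89.3 and 189 FPKM in Med23-/- libraries, and 6 of 7 rose. The OPC sums overlapped between the genotypes. The OPC markers Olig1 and Olig2 had log2 differences of -0.02 and 0.51 and missed the threshold (limma, adjusted p = 0.951 and 0.0621). The oligodendrocyte and neuron sums did not overlap, as the values of Sox9 and of Sox10 did not. What part the cells of these 3 lists had in the values of the members was not tested. The 6 microglia markers summed to at most 1.71 and 1.76 FPKM, and 0 of them reached the limit for testing. The 5 endothelial markers summed to at most 1.17 and 2.97 FPKM, with 1 rising, and the 7 markers of mural cells and fibroblasts to between 1.85 and 11.5 FPKM and between 3.86 and 18.2 FPKM, with 0 of the 3 tested called by limma and 0 at an unadjusted p under 0.05. No marker was at 0 in all libraries.

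**Figure D4:**
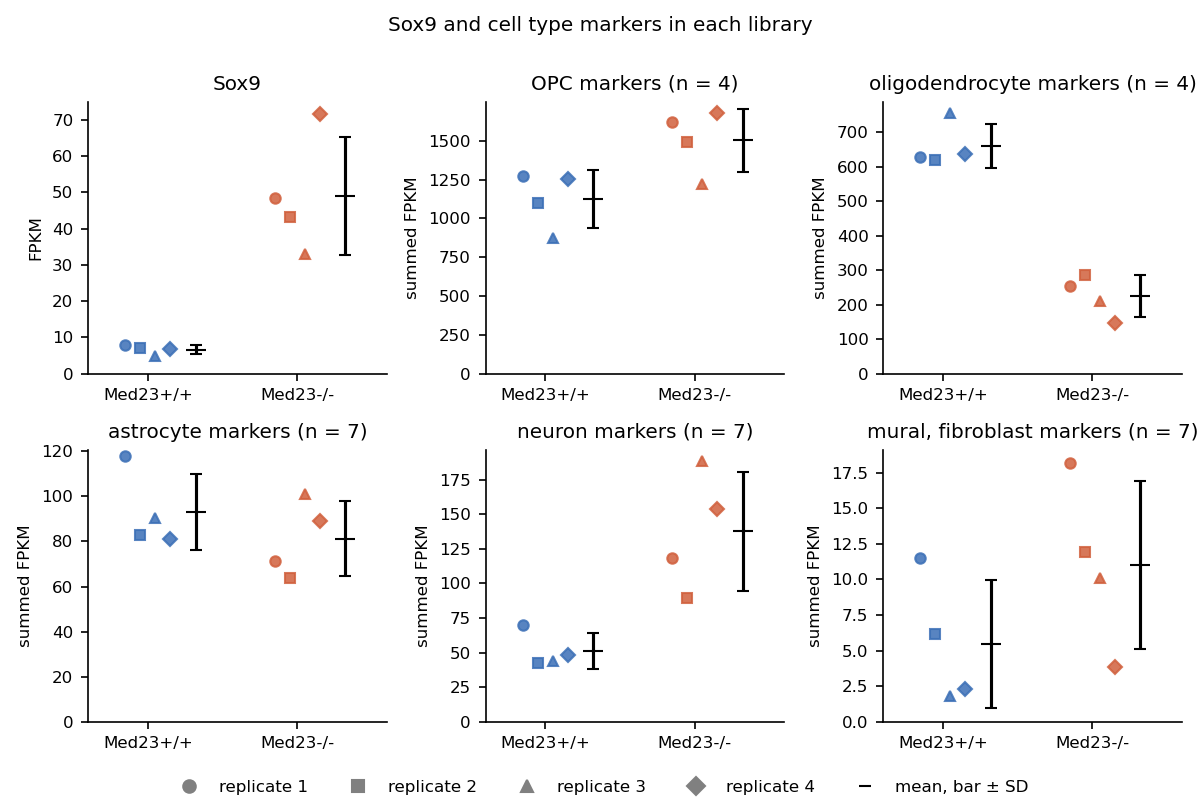
Sox9 FPKM and the summed FPKM of the markers of 5 cell types (y axes, from 0) in each library, 4 per genotype, with the mean ± SD as a bar and the replicate number as the shape of the point. Sox9 is higher in all Med23-/- libraries, and the neuron sum is at least 89.3 FPKM in Med23-/- and at most 70.2 FPKM in Med23+/+ libraries. The astrocyte sum, in which Aldoc has the highest level, overlaps between the genotypes.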

How the data were processed

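RNA-seq was analysed for 4 libraries of Med23+/+ and 4 of Med23-/- iOLs, grouped by the genotype in the labels. The authors deposited FPKM values per library and per genotype for 24346 genes. Reads were trimmed by the authors (Cutadapt) and mapped to mm10 by Tophat2 with its defaults, and cuffdiff was run with bias (-b) and multi-read (-u) correction, which adjust levels for sequence bias and share reads among related genes. Tool versions and the gene annotation are not given in the sources used here. The fold changes, p-values and q-values of cuffdiff, also in the table, were not used, and 0 library columns were left out. Depth is unknown, since the values are FPKM and not counts, so no counting interval is given.

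Values were taken as log2(FPKM + 1), which understates differences of low genes, without further scaling. Testing took in 12328 genes whose mean over all 8 libraries reached 1 FPKM, in limma 3.58.1 (R 4.3.3; lmFit, eBayes with a trend), with Benjamini-Hochberg adjustment over all of them. The fit was tested before use on simulated data, with 200 genes changed by 2 on the log2 scale and noise independent between libraries. Differences as small as those of most members were not simulated. A gene was called at an adjusted p under 0.05, and separately with a fold change over 2 besides. The study also used a fold change over 2, but of the expression level from cuffdiff. Here the limit was set on log2(FPKM + 1), so low genes pass it less readily. The members and the lists were chosen with earlier results of these data known. No p is therefore printed for a member, and the counts of members called are not read as a result. Lists are described by counts and medians only. Named are the 6 members, Med23, the 2 highest and 2 lowest called genes of each list, the 3 nearest profiles of Sox9, Sox10 and Sox8, and, of the markers, any at 0 throughout, the ends of a range, Gfap, Aqp4 and Aldh1l1. A few genes named by it are not reported here. Outside that rule, Zfp488, Sox11, Col2a1, Sox17, Notch1, Slc1a2, Gja1, Aldoc, Gjb6, Olig1 and Olig2 were chosen after their values were seen.

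Coordinates and coding sequences are from GENCODE vM21 on mm10. A script found the HMG block by extending, without gaps, a stretch of residues that all 6 members share. Alternatives were a pseudocount of 0.1, median-ratio and quantile scaling, other limits on low values (above 0, mean of at least 5 FPKM), no variance trend, array weights, the replicate number as a block, leaving out each library and, for shares, the share of mean FPKM. A covariate for replicates 3 and 4 against 1 and 2 was added after seeing the data. Tables and figures were made with Python 3.11.15, pandas 2.3.3, numpy 2.4.6 and matplotlib 3.10.9.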

Additional observations from a re-analysis of the deposited data

Results flagged for a closer look

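Of the values named, 78 sets of 4 libraries were examined for a library set apart from the other three by Dixon's criterion, and 6 had one, where chance gives about 5% of sets. Among the members, Sox10 in Med23+/+ iOLs had its low value of 220 FPKM in replicate 2. In Med23-/- iOLs, replicate 3 stood apart for Mag, at 1.47 FPKM, for Aqp4, at 4.86 FPKM, and for Aldh1l1, at 8.16 FPKM, each above its other three libraries. The summed oligodendrocyte markers of Med23+/+ replicate 3 were 757 FPKM, above the other controls, and the summed endothelial markers of Med23+/+ replicate 1 were 1.17 FPKM.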

How the results depend on the processing

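Sox9 remained higher and Sox10, Sox5, Sox6, Sox8 and Sox13 lower with a pseudocount of 0.1, median-ratio scaling, quantile normalization, the replicate block, the added covariate and each library left out. Array weights, no variance trend and other limits on low values were also fitted over all genes. They are reported for counts, lists and single list genes, not for the members. Over the first 5 of these settings and the values as reported, log2 differences were 2.65 to 2.82 for Sox9, -0.50 to -0.41 for Sox10 and -0.89 to -0.81 for Sox5. Under quantile normalization Sox6 was at -0.32. Sox13 was then also at -0.32 (SE 0.149), against -0.16 (SE 0.154) with the values as reported. Leaving out 1 library moved Sox9 between 2.47 and 2.83, Sox10 between -0.56 and -0.39, Sox5 between -0.91 and -0.77, Sox6 between -0.51 and -0.42, Sox8 between -0.31 and -0.08 and Sox13 between -0.24 and -0.04. Numbers of called genes depended more on the setting. With a mean of at least 5 FPKM, 1281 genes were higher by adjusted p, and 0 of the Sox10 list were higher, and of the cartilage list 4 were lower and 0 higher, where fewer genes were tested. With a pseudocount of 0.1, 654 genes were higher by both limits. Quantile normalization gave 1 upstream gene that rose and 0 cofactors that fell, and testing all genes above 0 gave 1 cofactor that fell. The cause of these moves, other than the limit on low values, was not tested. Over the fits without 1 library, 1 to 3 other Sox genes and 0 to 2 cofactors fell, and 2 to 4 gliogenic genes rose. Replicate numbers were shared by the genotypes in the labels. Same-numbered libraries had correlations of their deviations over genes of 0.13, -0.096, -0.026 and 0.159, positive for replicates 1 and 4 only. Med23+/+ replicate 1 was at 0.162 with Med23-/- replicate 2 and at -0.128 with Med23-/- replicate 4. Med23+/+ replicate 4 was at 0.142 with Med23-/- replicate 3 and at -0.179 with Med23-/- replicate 1. Correlations of either sign were thus found with and without a shared number. Centring within a genotype also forces deviations of both signs, so these values do not show whether deviations were shared across genotypes. Same-numbered libraries were not treated as pairs. With the replicate number as a block, 1835 genes were lower and 2085 higher, against 1738 and 1957 without it, and Sox9 stayed at 2.67 with an SE of 0.135. No interval from counting can be given, since depth is unknown.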
